A study of Homo sapiens with 12 samples.

Results

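Transcripts of 10 genes of glycolysis were followed in cells with and without mitochondrial DNA (mtDNA). The genes are HK1, HK2, GPI, PFKP, ALDOA, ALDOC, PGK1, ENO1, ENO2 and PKM, and they were taken by name, with older aliases, from the annotation of the array, an Affymetrix GeneChip of human genes. They are read by 18 of the 22283 probe sets of the array, and all 10 genes had at least 1 probe set. Several short probes near the 3′ end of a transcript form a probe set, and the signal of the set is given here in the units of the deposited values. The array held 0 probe sets annotated to mtDNA.

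Total RNA of 4 groups of cells was measured, with 3 arrays (A, B and C) for each group and 12 µg of RNA from a separate extraction for each array. The groups were the parental ρ+ cells and the mtDNA-depleted ρ° cells of 2 lines. A549 cells are epithelial and come from an adenocarcinoma of the lung, and 143BTK− cells come from an osteosarcoma and lack thymidine kinase. The ρ° cells were made with 50 ng/ml ethidium bromide for 3 weeks, and no clones were picked, so that each ρ° culture is a mixed population. The study describes no repeat of the depletion in a line. The tests below therefore measure the spread between RNA extractions of a line, not between separate depletions. Both kinds of cells grew in high glucose with 10% serum, 1 mM pyruvate and 50 µg/ml uridine, and only the ρ° cells had seen ethidium bromide, so that the drug and the loss of mtDNA cannot be told apart. In RNA from whole cultures, less of a transcript in each cell and fewer cells that make it cannot be told apart either.

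Glycolysis splits glucose into pyruvate in the cytosol and makes ATP without oxygen. Hexokinases trap glucose as glucose 6-phosphate, phosphofructokinase commits it to the pathway, aldolase cleaves the sugar into triose phosphates, and phosphoglycerate kinase and pyruvate kinase make ATP. Cells without mtDNA have no working respiratory chain and depend on this route for ATP. Most steps have isozymes from separate genes: ALDOA is the aldolase of muscle and of most cultured cells, ALDOC that of brain, ENO1 the widespread enolase and ENO2 the neuronal one.

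In A549, ALDOC was the member with the largest difference, at least 3.33-fold lower in ρ° cells. GPI, ALDOA and PKM were 1.6-fold to 1.86-fold lower and also passed the test. Of all probe sets tested in A549, 5.2% passed as lower and 5.66% as higher. The calls of GPI and PKM were lost in most fits with 1 array left out. Without the intensity trend of the test, only ALDOC of the members passed. No member passed in the opposite direction, and HK2 was not tested in A549. Of 7 markers of the A549 line, KRT8, KRT18, KRT19, CDH1 and AKR1B10 fell in the same ρ° cells. ALDH1A1 did not pass, and EPCAM was not tested in A549. KRT8 and KRT18 were also called lower in the mean of both lines, so their fall is not particular to A549. In 143BTK−, 0% of all tested probe sets passed, so the lack of a call there does not set a gene apart. ALDOC was 2.17-fold lower in that line, without passing. The brightest probe sets of GPI, ALDOA and PKM changed there by 0.04, −0.09 and −0.11 on the log2 scale, without passing. The difference between the lines passed for 1 member probe set, of ALDOA, where 0.89% of all passed in that direction. That call was lost in most fits with 1 array left out. Averaged over both lines, ALDOC and ALDOA passed as lower, as did 1.73% of all probe sets. The call of ALDOA came with little change in 143BTK−, and both its probe sets lost it in most fits with 1 array left out. The comparisons below follow the order of the pathway.

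The upstream sequence of a gene is where factors that set its transcription bind, so the sequences of the lowered genes with a single listed start are shown first. Many glycolytic genes are known targets of the factor HIF-1, whose core site reads ACGTG or GCGTG, and the hexamer CACGTG is the site of another family of factors, to which MYC belongs. The 150 bases before the start of ALDOC, GPI and PKM are printed 5′ to 3′ in the direction of the gene, from RefSeq on GRCh38.p14, with ACGTG and GCGTG on either strand in capitals (on the other strand they read CACGT and CACGC).
ALDOC, chr17:28576896-28577045, minus strand: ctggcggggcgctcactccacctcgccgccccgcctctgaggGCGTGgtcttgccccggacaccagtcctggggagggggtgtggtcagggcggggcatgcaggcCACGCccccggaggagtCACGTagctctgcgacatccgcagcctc
GPI, chr19:34364842-34364991, plus strand: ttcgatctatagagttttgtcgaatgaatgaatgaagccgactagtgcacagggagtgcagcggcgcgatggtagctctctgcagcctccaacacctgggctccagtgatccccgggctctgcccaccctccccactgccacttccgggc
PKM, chr15:72231191-72231340, minus strand: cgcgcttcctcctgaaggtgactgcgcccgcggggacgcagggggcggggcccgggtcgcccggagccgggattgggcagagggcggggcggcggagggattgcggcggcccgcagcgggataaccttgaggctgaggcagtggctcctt
In the 250 bases before its start, ALDOC had 3 matches to ACGTG and 2 to GCGTG, and 1 CACGTG, which alone makes up 2 of the ACGTG matches because it reads the same on both strands. GPI had 1 ACGTG, outside the printed bases, and 0 GCGTG, and PKM had 0 of both. ALDOA, the other lowered gene, has 3 listed starts, each with at least 1 ACGTG in its 250 bases. The table lists 22 starts for the 10 genes, and 7 genes had ACGTG before at least 1 of their starts and 6 had GCGTG. Per start, ACGTG was found before 10 of the 22, against 18.5% of the 35116 starts in the table, GCGTG before 7 of the 22, against 32.2%, and CACGTG before 3 of the 22, against 6.34%. A match describes the letters alone, and binding was not measured. Some of the 22 windows overlap, as those of HK1 do.

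For tests, probe sets were ranked in each line by mean log2 signal and kept down to a mean signal of 19.1 in A549 and 12.6 in 143BTK−, against medians over the array of 31.4 and 27.6. All 18 probe sets of the 10 genes were kept in 143BTK− and 16 in A549, where both probe sets of HK2 were below the limit. Changes are log2 differences of the ρ° from the ρ+ arrays, tested with limma and called at an adjusted p (Benjamini-Hochberg over all kept probe sets) under 0.05. A line's exact permutation test over 3 against 3 arrays cannot go below 0.1, and the test over both lines cannot go below 0.005. The lines were normalized apart, so levels are compared within a line alone. Pearson's r between arrays of a group was 0.899 to 0.964. The A549 ρ+ C array stood apart in RNA quality on ACTB but not on GAPDH. Its ACTB signal at the 5′ end was lower than at the 3′ end by a log2 difference of −3.14. The ACTB difference was −1.5 to −0.52 on the other A549 arrays and −0.59 to 0.22 in 143BTK−. For GAPDH the difference on that array was −0.43, close to −0.39 on the A549 ρ° B array. Of the markers of the lines, KRT8 ranked in the 97.3rd percentile or above on every A549 array. SPARC ranked in the 93.6th or above on every 143BTK− array. EPCAM ranked no higher than the 30.9th in A549 and RUNX2 no higher than the 42.6th in 143BTK−. Some markers did not tell the lines apart. KRT18 and VIM ranked in the 98.6th percentile or above on every array of both lines. COL1A1 ranked from the 64.7th to the 76.1st in 143BTK− and from the 61.7th to the 75th in A549.

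**Figure D1:**
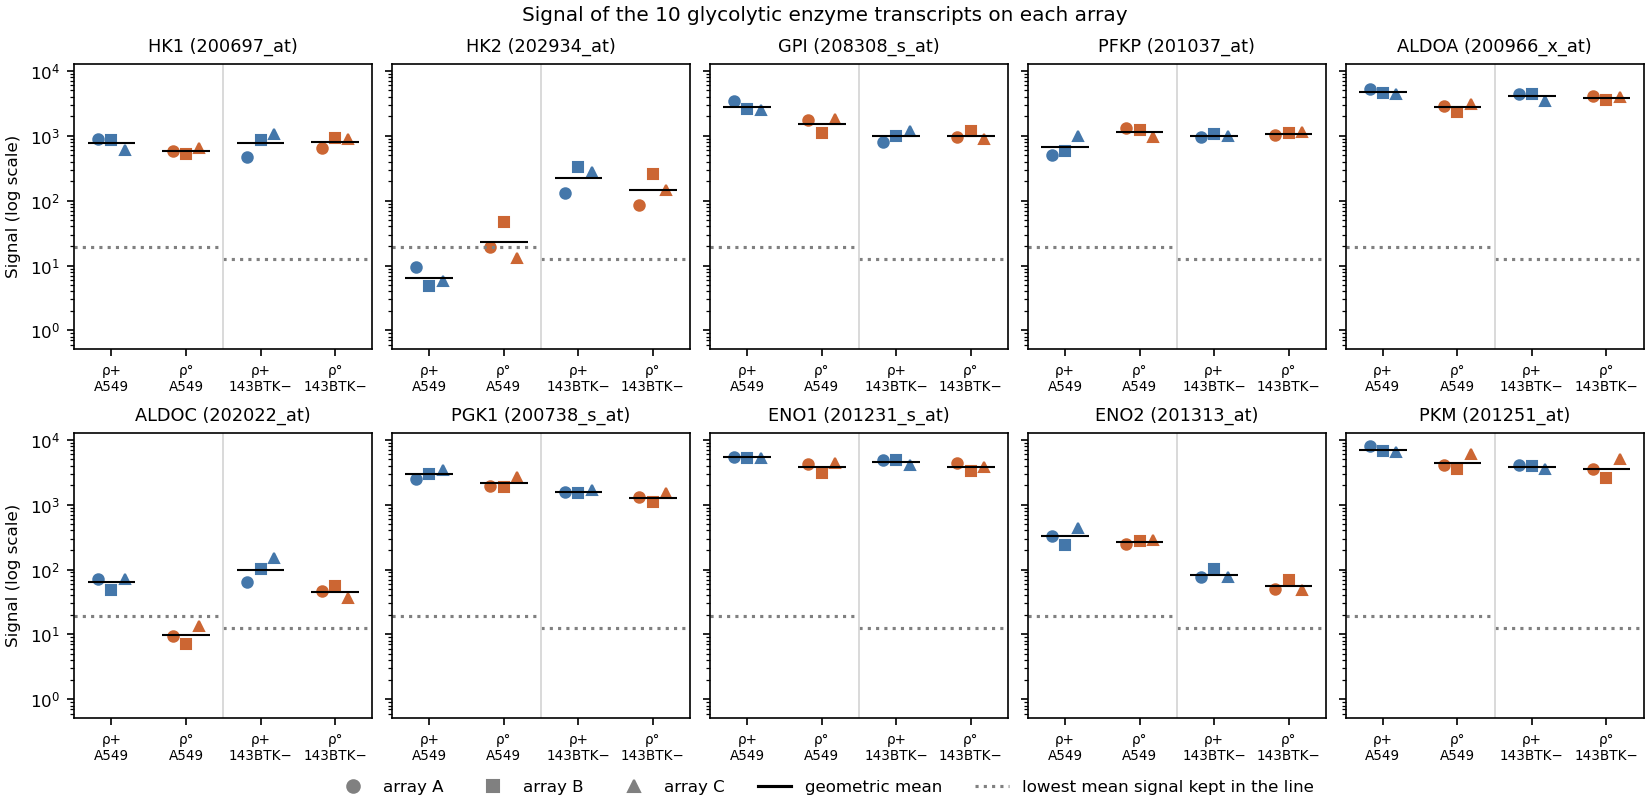
Each panel shows the brightest probe set of a gene, with the signal on a log axis, a point for each of the 12 arrays, the geometric mean of 3 arrays as a black line and a dotted line at the limit of each line, 19.1 or 12.6. ALDOC in A549 ρ° cells lies below the dotted line on all 3 arrays, while the ALDOA arrays of 143BTK− overlap.

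The first step showed no call. HK1, the hexokinase of most tissues, had A549 signals of 880.8, 855.8 and 607.9 in ρ+ cells and of 587.2, 517.2 and 649.9 in ρ° cells. The ρ° arrays overlapped the ρ+ C array. The log2 change was −0.41 (SE 0.19), with an interval of −0.83 to 0.02 and an adjusted p of 0.207 in limma. In 143BTK− the ρ+ signals were 470.7, 875.1 and 1074.7, the ρ° signals 645.7, 925.4 and 882.6, and the change 0.08 (SE 0.31, adjusted p = 0.965).

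HK2, the inducible hexokinase of muscle and many tumours, could be tested in 143BTK− only. In A549 its brighter probe set (202934_at) read 9.5, 4.9 and 5.8 in ρ+ cells and 19.5, 46.7 and 13.2 in ρ° cells. These groups do not overlap, but every ρ+ value and 1 ρ° value lie below 19.1, the probe set was not tested, and against that limit the ρ° signal was at least 1.2-fold higher. The other probe set, 222305_at, had overlapping A549 groups with a geometric mean of 16.6 in both. In 143BTK−, where HK2 was well above the limit, the signals were 130.5, 326.5 and 274.3 in ρ+ cells and 85.5, 261.3 and 144.8 in ρ° cells. Those groups overlapped, and the change was −0.62 (SE 0.46, adjusted p = 0.76 in limma). There 222305_at gave 0.36 (SE 0.93) in 143BTK−, with arrays between 11.4 and 129.6, and the wide error leaves its sign unsettled.

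GPI, which turns glucose 6-phosphate into fructose 6-phosphate, fell in A549. Its signals were 3451.6, 2560.9 and 2538.9 in ρ+ cells (mean 2850 ± 521, SD, n = 3) and 1741.3, 1114.7 and 1785.4 in ρ° cells (1550 ± 375). All 3 ρ° arrays lay below all 3 ρ+ arrays. The fall was 1.86-fold (log2 change −0.90, SE 0.21, interval −1.36 to −0.44, adjusted p = 0.0227 in limma). The call was lost when either the A or the B array of the ρ+ or the ρ° cells was left out (adjusted p 0.0586 to 0.0679). In 143BTK− the values 790.8, 986.3 and 1196.3 in ρ+ cells and 966.4, 1169.6 and 896.2 in ρ° cells were mixed, and the change was 0.04 with an interval of −0.43 to 0.51. The change in A549 minus that in 143BTK− was −0.94 (interval −1.59 to −0.29), which did not pass over all probe sets (adjusted p = 0.128).

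PFKP, the platelet-type subunit of phosphofructokinase, had the highest change of the 9 genes tested in A549. The ρ+ signals were 498, 591.3 and 979.2 and the ρ° signals 1321.2, 1236.9 and 954.3. The C arrays decided the overlap: ρ+ C was the highest ρ+ array and ρ° C the lowest ρ° array. The change was 0.81 (SE 0.25, interval 0.26 to 1.36), a ratio of 1.76, with an adjusted p of 0.0636 in limma, so it did not pass. Without the ρ+ C array it was 1.10 with an adjusted p of 0.00484. In 143BTK− the arrays ran from 969.2 to 1053 in ρ+ and from 1029.4 to 1137.9 in ρ° cells, a change of 0.10 (SE 0.16, adjusted p = 0.889). The exact permutation p of both lines together was 0.025, unadjusted.

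The aldolases behaved apart from each other. ALDOA (200966_x_at) read 5354.9, 4515.8 and 4363.9 in A549 ρ+ cells and 2858.9, 2290.6 and 3132.1 in A549 ρ° cells. No ρ° array reached a ρ+ array. It fell 1.73-fold (log2 change −0.79, SE 0.15, adjusted p = 0.0113 in limma). The second probe set, 214687_x_at, read 4363.9, 4790.3 and 4583.9 in ρ+ cells and 2738.8, 2248.3 and 2802.3 in ρ° cells, and fell 1.77-fold (−0.82, SE 0.13, adjusted p = 0.00507). Both probe sets therefore gave the same size of fall. The x in their names marks probes that may also bind related transcripts, so other sequences may share this signal.

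In 143BTK− the ALDOA signals of ρ+ cells were 4462.4, 4369.1 and 3478.1 and those of ρ° cells 4111.7, 3506 and 3924.5. The groups overlapped, and the change was −0.09 (SE 0.14), with an interval of −0.40 to 0.23. The second probe set, with 3165.2, 4334 and 3811.7 in ρ+ and 3946.3, 3679.2 and 3667.7 in ρ° cells, gave 0.01 (SE 0.14, adjusted p = 0.996). For this probe set the difference of the change between A549 and 143BTK− passed, at −0.83 (SE 0.19, interval −1.25 to −0.42, adjusted p = 0.0415), and 0.89% of all tested probe sets passed in that direction. The first probe set gave −0.70 with an adjusted p of 0.103, and with 1 array left out 214687_x_at passed this test in 2 of the 12 fits. ALDOA lies on chromosome 16, whose kept probe sets had a median change of −0.32 in A549 and −0.02 in 143BTK−. With the arrays centred on the median of each chromosome, the A549 change of 200966_x_at was −0.50 and did not pass (adjusted p = 0.0612), and the other probe set still passed. The difference between lines then failed for both. The part of the chromosome in the fall was not tested further.

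ALDOC had much lower signals than ALDOA in all groups, on probe sets of different design. In A549 it read 72.4, 48.9 and 72.5 in ρ+ cells (64.6 ± 13.6) and 9.5, 7.1 and 13.3 in ρ° cells (9.97 ± 3.13). All 3 ρ° values are below the lowest mean signal kept, so only a bound on their level is given. Against that limit ALDOC was at least 3.33-fold lower in ρ° cells, a log2 change of −1.74. The fit to the signals as deposited gave −2.72 (SE 0.40, adjusted p = 0.00326 in limma), which depends on values below the limit, and ALDOC was kept in A549 through its ρ+ arrays. Chromosome 17, which holds ALDOC, had a median change of 0.10 in A549.

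In 143BTK−, ALDOC read 63.1, 102.4 and 148.5 in ρ+ cells (105 ± 42.7) and 46.4, 54.7 and 36.8 in ρ° cells (46.0 ± 8.96). The groups did not overlap, and all 6 values were above the limit of the line. The level was 2.17-fold lower (log2 change −1.12, SE 0.35, interval −1.92 to −0.32, unadjusted p = 0.0111), which did not pass over all probe sets (adjusted p = 0.518 in limma). Averaged over both lines, the fitted change of ALDOC was −1.92 (SE 0.25, adjusted p = 0.0021 in limma), or −1.43 with its A549 ρ° level at the limit, and the exact permutation over both lines gave 0.005, its smallest possible p. Its mean change passed in every alternative setting in which it was tested. None of these settings held its A549 ρ° signals at the limit. The fitted change in A549 minus that in 143BTK− was −1.60 (SE 0.51), not passing (adjusted p = 0.12), and with the A549 ρ° level at the limit it was −0.62. ALDOC and ENO1 also stand in the list of genes that the study chose on these same samples, so their direction here is not independent evidence.

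**Figure D2:**
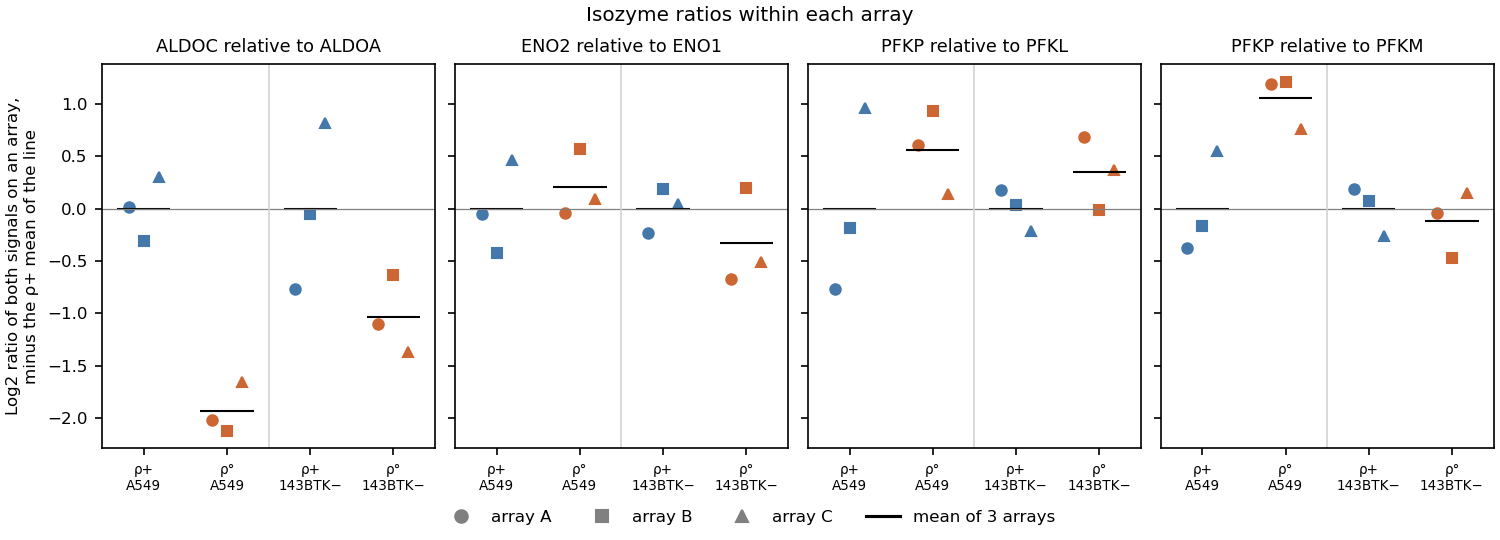
Log2 ratio of the signals of both isozymes on each array, set to 0 at the ρ+ mean of each line, for 4 pairs, with a point for each of 12 arrays and the mean of 3 arrays as a line. The ALDOC to ALDOA ratio shifts by −1.93 in A549, where the ALDOC signals of ρ° cells are below the limit (−0.95 with them raised to it), and by −1.03 in 143BTK−, and the ENO2 to ENO1 ratio moves by 0.20 and −0.33.

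To see whether isozymes of a step changed unequally, the log2 ratio of their signals was taken on each array for 4 pairs, with exact permutation tests over both lines adjusted over the 4. The ALDOC to ALDOA ratio in A549 was −8.33 to −7.88 in ρ° and −6.53 to −5.91 in ρ+ cells. In 143BTK− it was −6.74 to −6.00 and −6.14 to −4.55, with a small overlap. The mean shift was −1.48 (exact permutation p = 0.01, adjusted p = 0.04), and −0.99 with the same p when A549 signals below the limit were raised to it. Raising them left the A549 groups apart, so the same p adds no support. With the signals so raised, the A549 shift was −0.95, beside −1.03 in 143BTK−, where the line alone gave an exact permutation p of 0.2. ALDOC was kept in A549 through its ρ+ arrays and was known to be lower in these data. The test is therefore not independent evidence, and the shifts describe a larger fall of ALDOC than of ALDOA on these arrays. The other pairs did not pass: ENO2 to ENO1 shifted by −0.06 (exact adjusted p = 0.785), and PFKP by 0.45 relative to the liver-type PFKL and by 0.47 relative to the muscle-type PFKM (exact adjusted p = 0.2 for both). For PFKP and PFKM in A549 alone, the ρ° ratios of 1.59 to 2.04 lay above the ρ+ ratios of 0.45 to 1.38. HK2 to HK1 could be taken in 143BTK− only, where it shifted by −0.70 (exact permutation p = 0.3).

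PGK1, the first ATP-making enzyme of the pathway, was lower in both lines without a call. Its brightest probe set (200738_s_at) read 2517.5, 2932.7 and 3451.6 in A549 ρ+ cells and 1964.4, 1841.8 and 2667.1 in ρ° cells. In 143BTK− it read 1540.3, 1529 and 1685.8 against 1290.3, 1098.7 and 1493.8. The ρ° C array overlapped the ρ+ arrays in A549, while the 143BTK− groups were apart. The changes were −0.47 (SE 0.18, adjusted p = 0.123) and −0.30 (SE 0.17, adjusted p = 0.677 in limma), and the exact permutation p over both lines was 0.02, unadjusted. Of the other probe sets, 200737_at gave −0.43 and −0.14 and 217356_s_at gave −0.18 and −0.39. The dim 217383_at, with signals of 12.9 to 54, gave −0.15 and 0.46.

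ENO1, the widespread enolase, read 5517.2, 5199.8 and 5282.9 in A549 ρ+ cells and 4232.7, 3117.6 and 4389.2 in ρ° cells on 201231_s_at. These groups were apart, and the change was −0.46 (SE 0.15, interval −0.79 to −0.14, adjusted p = 0.072 in limma). In 143BTK− the signals were 4835.4, 4870.2 and 4028.8 against 4417.8, 3253.1 and 3824.6, with a change of −0.26 (adjusted p = 0.684). The exact permutation p over both lines was 0.01, unadjusted. The 3 probe sets of ENO1 disagreed. The dimmer 217294_s_at gave 0.26 in A549, with ρ+ signals of 1980.6, 1449.2 and 734.7 and ρ° signals of 2354.4, 946.3 and 1609.8. In 143BTK− it read 3811.7, 3149.9 and 3786 against 2771.8, 1981.9 and 2831.6, a change of −0.52 (unadjusted p = 0.015, adjusted p = 0.534). The third, 216554_s_at, gave −0.33 and 0.53, with signals of 55.3 to 133.5.

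ENO2, the neuronal enolase, read 323, 235.7 and 440.6 in A549 ρ+ cells and 248.4, 279.3 and 282.6 in ρ° cells, which overlap. Its 143BTK− signals were 75.6, 101.5 and 75.6 in ρ+ cells and 50.8, 68.2 and 49.1 in ρ° cells, which do not. The changes were −0.26 (adjusted p = 0.525) and −0.59 (SE 0.27, limma adjusted p = 0.617). Taking the lines together, the exact permutation p was 0.045, unadjusted.

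PKM, the pyruvate kinase of most tissues and tumours, fell in A549 at the last step. Its bright probe set (201251_at) read 8000.2, 6777.8 and 6439.9 in ρ+ cells and 4011.6, 3583.4 and 5945.4 in ρ° cells. The groups did not overlap, and the ρ° C array was near the ρ+ arrays. The fall was 1.6-fold (log2 change −0.68, SE 0.18, interval −1.08 to −0.27, adjusted p = 0.0412 in limma), and without either the A or the B array of the ρ+ or the ρ° cells it did not pass (adjusted p 0.108 to 0.159). The dimmer 213700_s_at read 153.7, 197.8 and 125.4 against 84.4, 102.1 and 48.5, a change of −1.06 (SE 0.31, adjusted p = 0.0524).

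In 143BTK− the PKM probe sets differed in sign. The bright one read 4050.2, 3901.1 and 3588.5 in ρ+ cells and 3570.5, 2540.3 and 5007.1 in ρ° cells, a change of −0.11 with an interval of −0.61 to 0.39. The dim one read 76.3, 62.6 and 39.4 against 59.1, 88.2 and 95.8, a change of 0.47 (adjusted p = 0.746 in limma). The groups overlapped on both. The difference between the lines was −0.57 (adjusted p = 0.376) and −1.53 (adjusted p = 0.115).

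**Figure D3:**
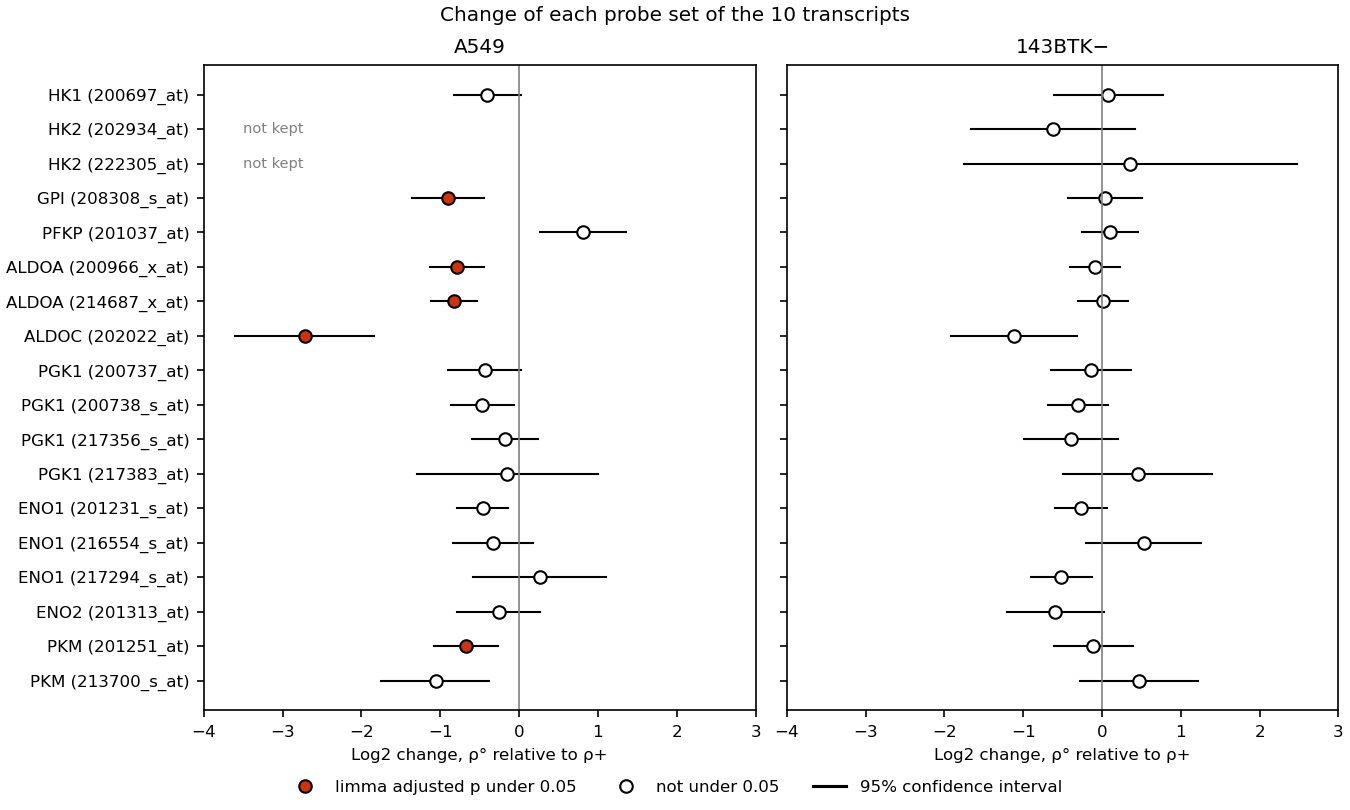
Log2 change in ρ° relative to ρ+ cells for the 18 probe sets in A549 (left) and 143BTK− (right), with 95% confidence intervals as lines and filled points for a limma adjusted p under 0.05. In A549, 5 probe sets are filled, all on the left of 0, and in 143BTK− none is.

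Counted together, 5 of the 16 probe sets kept in A549 were called lower, where 5.2% of all kept probe sets were, and 0 were called higher, where 5.66% of all were. All 3 ρ° arrays lay below all 3 ρ+ arrays for 7 of the 16, against 16.1% of all kept probe sets, and above them for 0, against 15.8%. By gene, with the brightest probe set, 4 of 9 were called lower, 8 of 9 changes were below 0 and PFKP alone was above, and the median change was −0.47 against 0 for all kept probe sets. The 5 calls belong to ALDOC, ALDOA, GPI and PKM. Without the ρ+ C array, 7 probe sets were called lower and PFKP higher. Of the 7 markers of the A549 line, 5 of the 6 tested also fell in ρ° cells (KRT8, KRT18, KRT19, CDH1 and AKR1B10). ALDH1A1 changed by −0.18 (adjusted p = 0.341 in limma), and EPCAM was not kept. The summed signal of the 7 was 26268 to 28865 on the ρ+ arrays and 15100 to 20462 on the ρ° arrays. AKR1B10, KRT18 and ALDH1A1 made up most of these sums. KRT19, a keratin, read 373.3, 381.4 and 471.4 in ρ+ and 2.1, 5.5 and 3 in ρ° cells, at least 21.3-fold lower against the limit of 19.1. KRT8 and KRT18 changed by −0.69 and −0.42 in 143BTK−, without a call. Both were called lower in the mean of both lines (adjusted p 0.049 and 0.0168 in limma), as were 1.73% of all probe sets. Of the 6 markers of the osteosarcoma line, 4 were tested in A549 and 0 passed. Their sums, mostly VIM, were 2621 to 4826 in ρ+ and 4302 to 4922 in ρ° cells. VIM ranked in the 98.7th percentile or above on every array of both lines, so these sums cannot tell the lines apart. The part of a change in the makeup of the A549 culture in the falls of the enzymes was not tested.

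In 143BTK−, 0 of the 18 probe sets passed in limma, as did 0% of all those kept, and the same count of 0 came from every alternative setting. At an unadjusted p under 0.05, 2 of the 18 were lower (ALDOC and ENO1 on 217294_s_at), against 4.6% of all, and 0 were higher. The ρ° arrays lay below the ρ+ arrays for 4 of the 18 (ALDOC, PGK1, ENO1 and ENO2), against 7.47% of all, and above for 0, against 7.37%. By gene, 7 of 10 changes were below 0, with a median of −0.18 against 0. In the mean of both lines 3 of 16 probe sets, those of ALDOA and ALDOC, were called lower, against 1.73% of all, and 0 higher, against 1.97%. The ALDOA probe sets changed by −0.09 and 0.01 in 143BTK−.

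**Figure D4:**
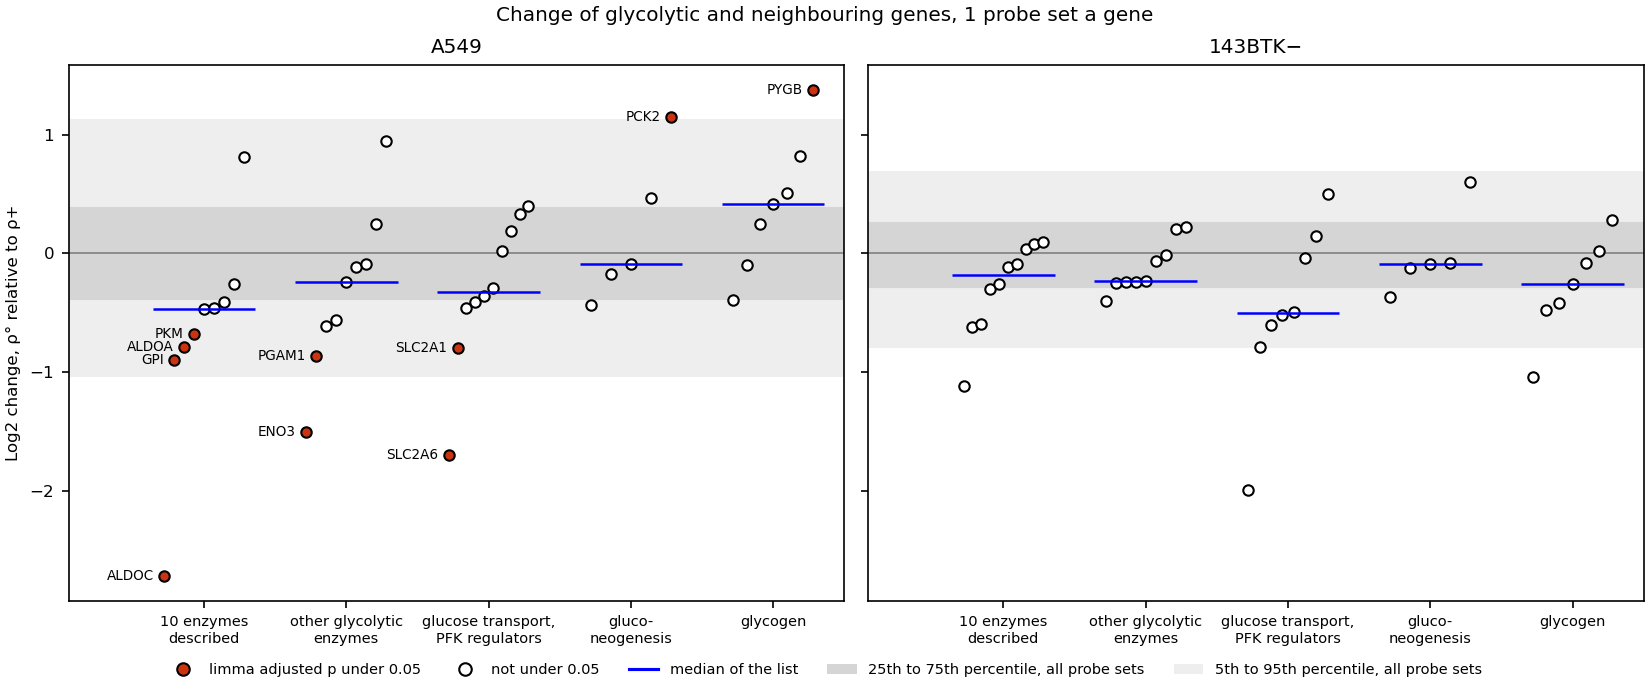
Log2 change of each gene, 1 probe set a gene, in 5 lists in A549 (left) and 143BTK− (right), with filled, named points for a limma adjusted p under 0.05, a blue line for the median of a list and grey bands for the 5th to 95th and 25th to 75th percentiles of all kept probe sets. ALDOC in A549 lies below the 5th percentile of −1.03, both at the plotted −2.72 and at its limit of −1.74.

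Of 16 further glycolytic enzymes, 14 are named on the array and 9 were tested in A549, where 2 fell and 0 rose, with a median change of −0.24. With all kept probe sets of a gene averaged, 3 fell. The shares over all kept probe sets, 5.2% lower and 5.66% higher, stand for these lists too, and no difference between lists was tested. PGAM1, the phosphoglycerate mutase between PGK1 and enolase, read 3088, 3218.5 and 4732.6 in ρ+ cells and 1901.8, 1680.3 and 2436.2 in ρ° cells and fell 1.82-fold (adjusted p = 0.022 in limma). ENO3, the muscle enolase, read 196.2, 201.1 and 161.5 against 68, 64.8 and 64 and fell 2.83-fold (log2 change −1.50, adjusted p = 0.00269). Both had groups apart in A549. TPI1, the triose phosphate isomerase, changed by −0.61 on 200822_x_at (adjusted p = 0.0669 in limma) and did not pass. It passed without the ρ° C array (0.0146), with the replicate letter as a block (0.0333) and with a mean signal of at least 100 (0.0452). In the other 5 of 6 fits with 1 array left out it did not pass (0.0951 to 0.222). Its probe sets 213011_s_at (−0.60, adjusted p = 0.0593) and 210050_at (−0.67, adjusted p = 0.249) did not pass. GAPDH, which links the triose phosphates to PGK1, changed by −0.11 in A549 and −0.06 in 143BTK− on 212581_x_at, from signals of 9461.5 to 11796.3 and of 8195.8 to 9205.5. In 143BTK− 0 of the 9 enzymes tested passed, and the median was −0.23.

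Glucose transporters and the enzymes that regulate phosphofructokinase gave 2 falls and 0 rises among the 10 of 18 tested in A549 (1 fall with the probe sets of a gene averaged), with a median of −0.33, against 5.2% of all kept probe sets lower and 5.66% higher. SLC2A1, the basal glucose transporter, read 367.7, 368.9 and 335.6 in ρ+ cells and 178.3, 254.3 and 190.5 in ρ° cells on 201250_s_at and fell 1.74-fold (adjusted p = 0.0311 in limma). Its dimmer probe set, 201249_at, gave −0.20 (adjusted p = 0.779), and in 143BTK− the bright one gave 0.15. SLC2A6, a transporter of lysosomal membranes, read 104.7, 88.6 and 91.3 against 23.2, 23.9 and 44.1 and fell 3.26-fold (adjusted p = 0.00844). In 143BTK− 0 of 8 passed, with a median of −0.50.

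Among genes of the reverse route and of glycogen, 1 gene of each list rose in A549, where 5.66% of all kept probe sets were called higher. Of 5 gluconeogenic genes tested, 1 rose and 0 fell, with a median of −0.09, on the same side of 0 as the glycolytic lists. It was PCK2, the mitochondrial phosphoenolpyruvate carboxykinase, with 70.9, 89.4 and 96.3 in ρ+ cells and 206.2, 205 and 157.8 in ρ° cells, a ratio of 2.22 (adjusted p = 0.0121 in limma). PCK2 in 143BTK− read 81.7, 120.9 and 242.8 against 218, 210 and 184.3, a change of 0.60, and the mean of both lines was 0.88 (adjusted p = 0.0489 in limma). That call was lost in 11 of the 12 fits with 1 array left out (adjusted p 0.0508 to 0.124), without a filter (0.0715), without an intensity trend (0.0735) and with the replicate letter as a block (0.075). Of 7 glycogen genes tested, 1 rose in A549 and 0 fell, with a median of 0.42. It was PYGB, the brain-type glycogen phosphorylase, with 465, 400.2 and 138.6 in ρ+ cells and 635.8, 854.8 and 841.2 in ρ° cells (ratio 2.61, adjusted p = 0.0462). In 143BTK− PYGB read 174.6, 63 and 111.6 against 42.8, 61.9 and 53.7, a change of −1.04 (adjusted p = 0.561), and the difference between the lines, 2.42, had an adjusted p of 0.0514.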

How the data were processed

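RNA from A549 and 143BTK− cells, ρ+ and ρ°, was hybridised to 12 Affymetrix arrays, 3 a group. The deposited intensity values are signals that the authors computed with MAS5 from the array images and then quantile-normalized over the 6 arrays of each line, which gives arrays of a line the same set of values. They are on a linear scale and were used as log2. No scan, extraction or hybridisation batch is given in the sources used here.

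The members and gene lists were chosen with earlier results of these data known. Names of probe sets come from the annotation of the platform: 19071 have a single gene, 1043 several and 2169 none, and only those with a single gene were used by name. Detection calls were not used here. The filter used the mean log2 signal instead, and the top 14012 in 143BTK− and 13096 in A549 were used (as many as the study kept), of which 12139 in both. Changes were fitted with limma 3.58.1 (R 4.3.3; lmFit, eBayes with an intensity trend) for each line, with 4 residual degrees of freedom, and over 12 arrays for the mean and the difference of both lines, with Benjamini-Hochberg adjustment at 0.05. Single values also had a two-sided exact permutation test, over 20 arrangements in a line and 400 over both. The power law global error model that the study used was not run. Gene lists were described by the brightest kept probe set of a gene. Genes named outside the members were those of the lists that passed in any of the 4 contrasts, with GAPDH, TPI1, PGAM1 and SLC2A1 whatever their values, besides the markers.

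The alternatives used arrays scaled to one median, all 12 arrays quantile-normalized together, offsets of 16 or 64, no filter on signal or a minimum mean of 100, eBayes without the trend, a block for the replicate letter, all probe sets of a gene averaged, and fits that omit each array in turn. Leaving out both ρ+ C arrays and centring on the median of each chromosome were chosen after seeing the data. The fits were tested on simulated data with known changes. The number of arrays limits the precision. Plots used matplotlib 3.10.9 (Python 3.11.15).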

Additional observations from a re-analysis of the deposited data

Results flagged for a closer look

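A difference between the lines was found for ALDOA on the probe set 214687_x_at. Its change in A549 minus that in 143BTK− was −0.83 (adjusted p = 0.0415 in limma over both lines), with a change of −0.82 in A549 and 0.01 in 143BTK−. The other ALDOA probe set gave −0.70 (adjusted p = 0.103).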

How the results depend on the processing

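The changes of ALDOC in A549 and in the mean of both lines passed, and its change in 143BTK− did not, in every alternative in which ALDOC was tested. With a mean signal of at least 100 required, ALDOC was not tested. The A549 ρ° signals of ALDOC are below the limit and were not held at it in any of these fits. Adding 64 before log2 brought its A549 change to −0.79. Scaling to the same median and quantile normalization over 12 arrays left the counts of called probe sets as they were. The arrays of a line already held the same set of values, so these settings could change little and test little. In A549 the 5 called probe sets became 1 (ALDOC) without an intensity trend, 3 to 8 with 1 array left out (3 without the A or B array of either group, 6 without ρ° C and 8 without ρ+ C), 8 without both ρ+ C arrays and 3 with chromosomes centred. Without a filter 4 were called, as PKM was lost (adjusted p = 0.0927 in limma). A mean signal of at least 100 gave 7, with PFKP higher (0.0472) and ENO1 lower (0.0462). The 3 called in the mean of both lines became 1 (ALDOC) without a filter, without a trend, with the replicate block and with chromosomes centred, and 1 to 4 with 1 array left out: 4 without A549 ρ° C or ρ+ C, and 1 without any other A549 array, any 143BTK− ρ° array or 143BTK− ρ+ B. The 1 called in the difference between the lines became 0 without a filter, without a trend, with the replicate block, without both ρ+ C arrays and with chromosomes centred, and 0 to 1 with 1 array left out. Without A549 ρ+ C, the 1 called was PFKP, on the higher side (0.99, adjusted p = 0.0472 in limma), and not ALDOA. PFKP was then also called higher in the mean of both lines (0.60, adjusted p = 0.0198). The causes were not tested.

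Some changes near 0 turned their sign. With 1 array left out, the 143BTK− change ranged from −0.26 to 0.33 for HK1, from −0.11 to 0.19 for GPI, from −0.35 to 0.14 for PKM, from −0.41 to 0.01 for PGAM1 and from −0.80 to 0.03 for ENO3, the mean change of PYGB from −0.10 to 0.35 and the difference of GAPDH from −0.12 to 0.04. Centring chromosomes gave −0.15 for GPI in 143BTK− and 0.01 for the difference of GAPDH, the mean of its probe sets gave 0.18 for PKM in 143BTK−, and leaving out both ρ+ C arrays gave −0.08 for the mean of PYGB. Of the other calls in A549, those of PGAM1, SLC2A1, PCK2 and PYGB were lost with some arrays left out (adjusted p 0.0526 to 0.145 in limma), and that of SLC2A1 also with the mean of its probe sets (0.196). Without an intensity trend, PGAM1 (0.0904), SLC2A1 (0.0731) and PYGB (0.109) did not pass. PYGB also failed without a filter (0.0794).

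Whether the replicate letters pair the arrays is not known. The correlation of the deviations of same-lettered ρ+ and ρ° arrays from their group means was 0.359, −0.106 and −0.0155 for A, B and C in 143BTK−. In A549 it was 0.107, 0.0543 and 0.0861. Arrays of unlike letters were not compared. With the block, 6 probe sets were called in A549, 1 in the mean of both lines and 0 in the difference between them.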
